A study of Mus musculus with 6 samples.

Results

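The genes described here are 10 nuclear genes whose products copy, package and transcribe mitochondrial DNA or keep its messenger RNAs stable, together with the regulator Nrf1. They were taken by name, from their roles, and all 10 were found among the 55774 rows of the expression table. The study sequenced RNA from mouse blastocysts grown with extracellular vesicles (EVs), small membrane particles that cells release into body fluids, isolated from human Fallopian tube fluid. In the oEV-EMT group the vesicles came from women with endometriosis, and in the oEV-ctrl group from women without it. The labels describe the control donors as having uterine fibroids, while the study's methods name a different gynaecological diagnosis for women without endometriosis. All embryos were wild type, of the ICR strain, and were placed with the vesicles in CZB medium at the two-cell stage. Each group had 3 libraries, and each library pooled 10 blastocysts, so no value belongs to a single embryo. No library of embryos grown without vesicles was analysed here, so a difference between the groups cannot be assigned to one of them.

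Mitochondrial DNA is a small circular genome that encodes subunits of the respiratory chain together with the ribosomal and transfer RNAs needed to translate them. Every protein that replicates or transcribes it is encoded in the nucleus and imported. In the mouse embryo the mitochondrial genomes come from the oocyte, and replication resumes around the blastocyst stage, first in the trophectoderm, the outer layer that will form the placenta.

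The promoters of the 10 genes are shown first, because this family is a textbook case of nuclear genes with shared promoter motifs. RefSeq promoter windows of 300 bases (assembly GRCm38.p6), covering 250 bases before and 50 after the start of transcription, were found for 10 of 10 genes, with 11 windows in all because Nrf1 has a pair of starts. Each was searched on both strands for GCATGCGC, the core of the NRF1 motif, for CCGGAAG, a GABP (Ets) motif, and for GCCATNTT, a YY1 motif. The motifs do not overlap one another in these windows. The GABP letters occurred in 6 of the 10 genes (Polg, Polg2, Ssbp1, Polrmt, Tfam and Slirp). That is 6 of the 11 windows, against 8.86% of 32851 mouse windows of the same length. The NRF1 letters occurred in 2 genes (Tfb2m and Polrmt), 2 of the 11 windows, against 2.71% of mouse windows. The YY1 letters occurred in 1 gene (Slirp), 1 of the 11 windows, against 6.05% of mouse windows. For 3 genes (Tfb1m, Lrpprc and Nrf1) none of the motifs was in these windows. A match of letters is a description of the sequence and not a measured binding site.

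Polrmt was the gene with both the NRF1 and the GABP letters, and its 250 bases before the start (chr10:79746582-79746831, minus strand) are given with the NRF1 match first and the GABP match second in capitals.
Polrmt: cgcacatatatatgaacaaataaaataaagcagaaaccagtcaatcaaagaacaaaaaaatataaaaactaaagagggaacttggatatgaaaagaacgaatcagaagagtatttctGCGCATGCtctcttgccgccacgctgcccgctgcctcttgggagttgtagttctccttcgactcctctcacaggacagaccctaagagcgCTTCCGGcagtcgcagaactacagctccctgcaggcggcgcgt

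For the other genes 1 GABP or NRF1 match each is shown as 30 bases, to compare the bases around the motif between genes, with the match in capitals and each sequence written in the direction of its gene. The GABP matches of Tfam (chr10:71238073-71238102, minus strand), Polg (chr7:79466293-79466322, minus strand), Polg2 (chr11:106779548-106779577, minus strand) and Ssbp1 (chr6:40471410-40471439, plus strand) all began between 47 and 29 bases before the start. Slirp held 3 GABP and 2 YY1 matches, of which only the GABP match at chr12:87443837-87443866 (plus strand), 48 bases before the start, is shown. The NRF1 match of Tfb2m (chr1:179546245-179546274, minus strand) lay after the start.
Tfam, GABP: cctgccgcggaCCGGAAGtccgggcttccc
Polg, GABP: gaggacctcacCCGGAAGtccctctgcacc
Polg2, GABP: cgggtgacgctCTTCCGGgggcgtggtcta
Ssbp1, GABP: ggctccgtgcgCCGGAAGcgagccgctggc
Slirp, GABP: aacagtttggcCCGGAAGcagaactcgaaa
Tfb2m, NRF1: ctaggtcgttcGCATGCGCcattcgtaatg

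The values are FPKM, fragment counts scaled by transcript length and by sequencing depth, so levels of different genes can be set beside each other. Sums over a library ran from 1293175 to 1551567 FPKM. Of these sums, 1 unannotated entry held 15.3% to 19.0% in oEV-EMT and 19.7% to 31.5% in oEV-ctrl, without overlap. The part of this entry in the scaling of the other values was not tested. Read counts were not analysed here. The spacing of the lowest values placed relative depth within a 2.07-fold range, the deepest being oEV-EMT 1 and the shallowest oEV-ctrl 1. This order is a rough estimate. Only 14.2% (oEV-EMT 1) to 21.8% (oEV-EMT 2) of low values lay within 1% of whole steps of that spacing. No counting interval could be given. Trophectoderm markers summed to 3123 to 4734 FPKM in oEV-EMT and 3075 to 4826 in oEV-ctrl, and all 7 were detected. Krt18 and Krt8 made up most of these sums, so they say little about the others. Log2 fold changes were -0.39 for Eomes, -0.26 for Gata3, -0.023 for Krt18 and -0.021 for Krt8. They were 0.041 for Tfap2c, 0.075 for Cdx2 and 0.67 for Elf5. All 7 overlapped between the groups, and 6 lay below the median of all genes tested. Epiblast markers summed to 81.8 to 105 FPKM against 41.0 to 62.3, and of 6 markers 3 (Nanog, Pou5f1 and Fgf4) were higher without overlap, beside 18.1% of all genes tested. Sox2, Klf2 and Esrrb overlapped, with log2 fold changes of -0.32, 0.071 and -0.061. The 5 primitive endoderm markers summed to 30.3 to 46.9 against 30.6 to 36.1 FPKM. Of them 2 (Gata4 and Sox7) were higher without overlap, again beside 18.1% of all genes. Gata6, Pdgfra and Sox17 overlapped, with log2 fold changes of -0.19, 0.075 and 0.95. After median-of-ratios scaling Nanog, Pou5f1, Fgf4 and Gata4 stayed higher without overlap, beside 9.85% of all genes. Sox7 then overlapped, and Gata6 was lower without overlap, beside 10.3% of all genes. None of these markers passed an adjusted p of 0.05 by limma. Markers of maternal cells were low. The 5 cumulus and granulosa markers summed to 1.03 to 2.07 against 0.488 to 0.761 FPKM, with Cyp19a1, Amh and Fshr listed at 0. Most of that sum was Amhr2, at 1.03, 2.07 and 1.32 against 0.542, 0.464 and 0.737 FPKM. Amhr2 was higher without overlap, beside 18.1% of all genes tested, with a log2 fold change of 0.63 (limma adjusted p = 0.222). After median-of-ratios scaling the log2 fold change was 0.54, again without overlap, beside 9.85% of all genes. Since the filter was 1 FPKM in 3 libraries, Amhr2 entered the genes tested only through oEV-EMT. Its fold change and p are therefore not read as support for a difference. The 3 oviduct epithelium markers summed to 0.174 to 0.349 against 0.109 to 0.261 FPKM, with Foxj1 at 0. The 3 blood markers summed to 0.524 to 2.22 against 0.472 to 1.22 FPKM, with Ptprc and Hbb-bs at 0 and Hba-a1 overlapping. The part of cell composition in the results below was not tested, and in pools of whole embryos fewer cells of a type cannot be told apart from less RNA per cell.

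The 10 genes were all expressed, over a wide range. Averaged over the 6 libraries, Ssbp1 was highest at 157 FPKM and lay in the 92.9th percentile of genes tested. Lrpprc followed at 34.0 FPKM. A middle group held Tfam at 19.2, Tfb1m at 18.7, Nrf1 at 16.5, Tfb2m at 12.3 and Slirp at 11.8 FPKM. The lowest were Polrmt at 5.33, Polg at 4.24 and Polg2 at 3.99 FPKM, near the 41.1st, 34.8th and 34.1st percentiles. By listed FPKM, transcripts of the polymerases that copy and transcribe the mitochondrial genome were thus the least abundant of the 10. That of the protein that coats single strands was the most abundant. Between neighbours in this order, the ranges did not overlap for Ssbp1 and Lrpprc, which differed 4.63-fold, nor for Lrpprc and Tfam, which differed 1.77-fold. Slirp was above Polrmt in 6 of 6 libraries, by 2.21-fold on average, although their ranges over all libraries overlapped. The place of Slirp in this order is uncertain, since 93.9% of its exon bases overlap exons of Snw1 on the opposite strand. The neighbours Tfam and Tfb1m, Tfb1m and Nrf1, and Tfb2m and Slirp changed places in 3 of 6 libraries each and did not differ beyond their spread. Nrf1 was above Tfb2m and Polrmt above Polg in 5 of 6 libraries, and Polg above Polg2 in 4 of 6, with overlapping ranges.

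**Figure D1:**
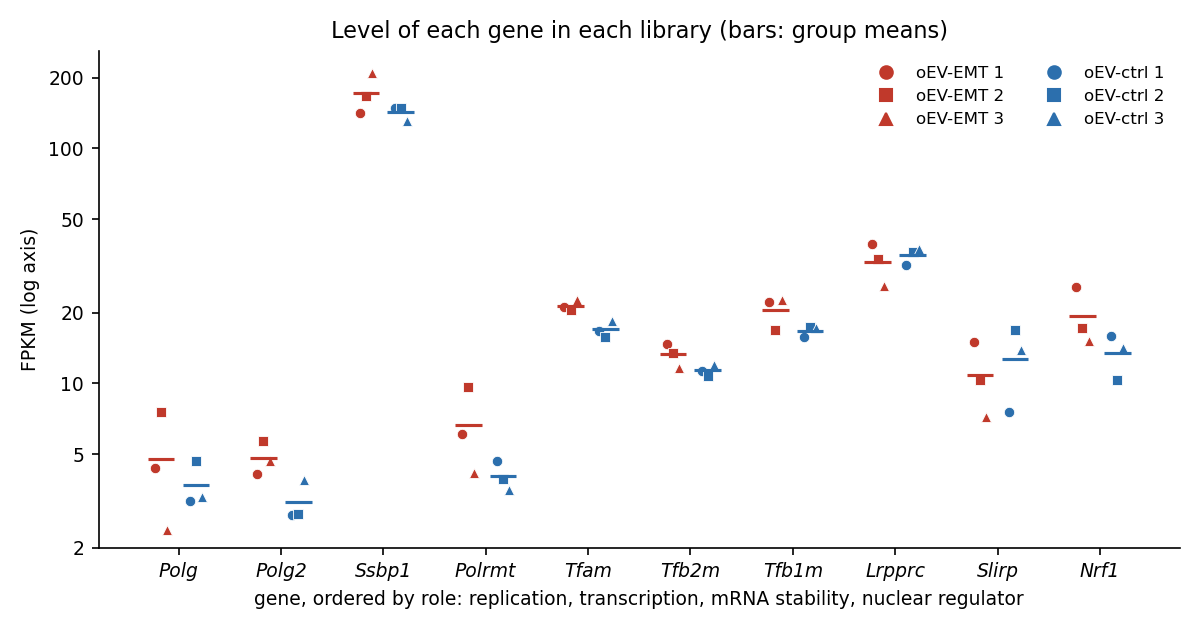
FPKM (log axis) of the 10 genes in each of the 6 libraries, with oEV-EMT in red, oEV-ctrl in blue and bars at the group means. Ssbp1 lies above 130 FPKM in every library, Polg, Polg2 and Polrmt lie below 10, and the red and blue points separate fully for Polg2 and Tfam.

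No member of the family passed an adjusted p of 0.05 between the groups. The test was limma on log2(FPKM + 1) over 11924 genes, with Benjamini-Hochberg adjustment. Adjusted p ran from 0.331 for Polg2 to 0.849 for Lrpprc, and 0 of 10 reached an unadjusted p of 0.05, although Polg2 or Polrmt did under some alternatives given at the end. Over the whole table, a total of 0 genes (0%) passed the adjusted threshold, with or without a 2-fold change in addition, and the smallest adjusted p was 0.0934. At an unadjusted p of 0.05, 12.8% of genes were higher and 2.55% lower in oEV-EMT. The fold changes of 8 of the 10 were positive (5 after upper quartile scaling, where Polg, Ssbp1 and Tfb2m were just below 0), beside 70.1% of all genes, and their median was 0.26 on the log2 scale beside 0.17 for all genes tested. All log2 fold changes below are on this log2(FPKM + 1) scale, which understates differences of low genes such as Polg and Polg2. Nothing in the labels says that the 3 libraries of a group came from separate cultures, so p-values measure the spread between these libraries, which may be technical.

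For 2 of the 10 genes, Polg2 and Tfam, every oEV-EMT library was higher than every oEV-ctrl library, and for none was the reverse seen. Among all genes tested 18.1% were higher without overlap and 4.34% lower, so 2 of 10 was near the background. This separation depended on the scaling between libraries. After median-of-ratios scaling, 9.85% of all genes were higher and 10.3% lower without overlap, 6.43% and 6.4% at an unadjusted p of 0.05. None of the 10 genes then reached that unadjusted p. None was higher without overlap, and Lrpprc was lower.

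**Figure D2:**
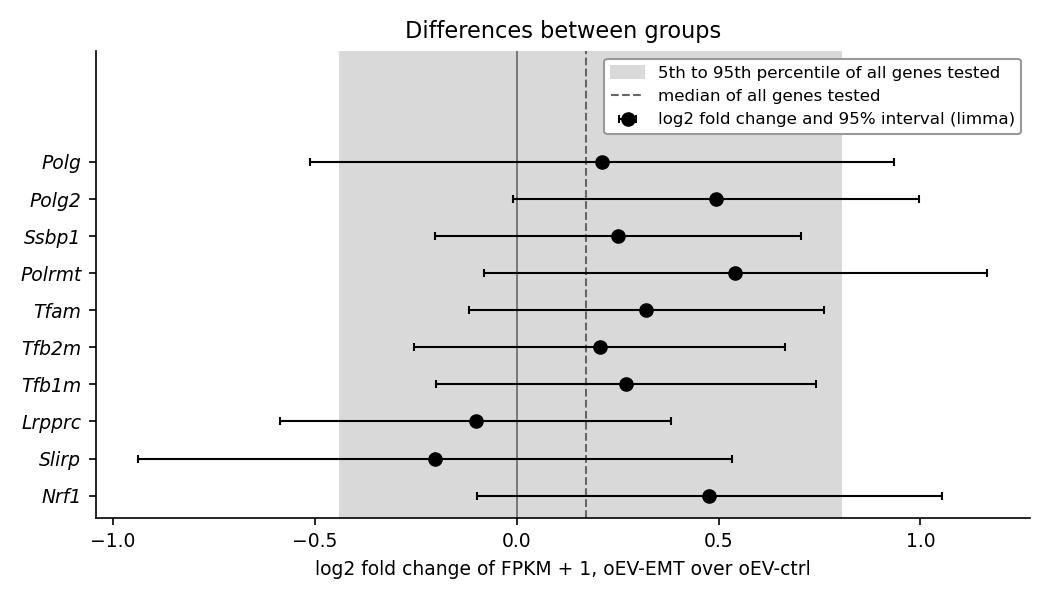
Log2 fold change of FPKM + 1 (oEV-EMT over oEV-ctrl, limma) of each gene with its 95% confidence interval, the grey band spanning the 5th to 95th percentile of 11924 genes and the dashed line their median. All 10 points lie within the band, which runs from -0.44 to 0.80, and every interval includes 0.

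The replication factors came first in order of role. Polg encodes the catalytic subunit of DNA polymerase gamma, the replicative polymerase of mitochondria (ENSMUSG00000039176, chr7:79446231-79466362, minus strand, GRCm38). Its level was 4.38, 7.59 and 2.39 FPKM in the oEV-EMT libraries 1 to 3 and 3.15, 4.66 and 3.29 FPKM in the oEV-ctrl libraries 1 to 3. The oEV-EMT group held both the highest and the lowest library and the groups overlapped. The means were 4.79 ± 2.62 and 3.70 ± 0.834 FPKM (SD, n = 3), and the log2 fold change was 0.21 (95% interval -0.51 to 0.94, limma adjusted p = 0.785). Exons of Polg overlap those of Fanci on the opposite strand over 8.57% of their bases, and counting by strand is not stated in the sources used here. Fanci was at 1.28 to 3.97 FPKM.

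Polg2 encodes the accessory subunit that holds the polymerase on its template (ENSMUSG00000020718, chr11:106768253-106779537, minus strand). Its level was 4.13, 5.68 and 4.67 FPKM in oEV-EMT and 2.75, 2.78 and 3.90 FPKM in oEV-ctrl. The groups did not overlap, although the lowest oEV-EMT and the highest oEV-ctrl library were close. The means were 4.83 ± 0.787 and 3.15 ± 0.654 FPKM, a 1.54-fold ratio. The log2 fold change was 0.49 (interval -0.0082 to 1.00, limma adjusted p = 0.331), and after median-of-ratios scaling the groups overlapped, with 0.34.

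Ssbp1 encodes the mitochondrial single-stranded DNA binding protein, which covers the displaced strand during replication (ENSMUSG00000029911, chr6:40471352-40484700, plus strand). It was at 141, 167 and 208 FPKM in oEV-EMT and 149, 148 and 131 FPKM in oEV-ctrl. The oEV-ctrl libraries lay close together and oEV-EMT library 1 fell among them. The log2 fold change was 0.25 (interval -0.20 to 0.70, limma adjusted p = 0.584) between means of 172 ± 33.9 and 143 ± 10.1 FPKM.

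The transcription factors follow. Polrmt encodes the single-subunit RNA polymerase of mitochondria, which also makes the primers for replication (ENSMUSG00000020329, chr10:79736123-79746581, minus strand). It was at 6.09, 9.62 and 4.17 FPKM in oEV-EMT and 4.67, 3.92 and 3.52 FPKM in oEV-ctrl. Libraries 1 and 2 of oEV-EMT were above all of oEV-ctrl and library 3 was among them. The log2 fold change of 0.54 was the highest of the 10 genes (interval -0.08 to 1.17, limma adjusted p = 0.382), with means of 6.63 ± 2.76 and 4.04 ± 0.583 FPKM. It was 0.27 without oEV-EMT library 2 and 0.79 without oEV-EMT library 3.

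Tfam encodes the protein that packages mitochondrial DNA into nucleoids and bends its promoters for initiation (ENSMUSG00000003923, chr10:71225464-71238280, minus strand). It was at 21.2, 20.5 and 22.6 FPKM in oEV-EMT and 16.6, 15.8 and 18.5 FPKM in oEV-ctrl. The groups did not overlap and both were tight, with means of 21.4 ± 1.06 and 17.0 ± 1.38 FPKM. The log2 fold change was 0.32 (interval -0.12 to 0.76, limma adjusted p = 0.464). After median-of-ratios scaling Tfam was at 18.3, 18.8 and 22.6 against 18.4, 17.3 and 18.3, the groups overlapped, and the log2 fold change was 0.13.

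Tfb2m and Tfb1m encode related proteins with different tasks. Tfb2m melts the promoter together with the polymerase (ENSMUSG00000026492, chr1:179528055-179546267, minus strand). It was at 14.8, 13.5 and 11.6 FPKM in oEV-EMT and 11.3, 10.8 and 12.0 FPKM in oEV-ctrl, overlapping through oEV-EMT library 3. The log2 fold change was 0.21 (interval -0.25 to 0.66, limma adjusted p = 0.665). Of the 50-base stretches of its transcripts, 31.9% are also found in Gm1818, and Tfb2m was 61.9% to 71.1% of the sum of the pair, so part of its value is uncertain. Tfb1m methylates the small ribosomal RNA of mitochondria (ENSMUSG00000036983, chr17:3519256-3557781, minus strand). It was at 22.3, 16.8 and 22.8 FPKM in oEV-EMT and 15.7, 17.4 and 17.3 FPKM in oEV-ctrl. Library 2 of oEV-EMT lay among the oEV-ctrl libraries, and the log2 fold change was 0.27 (interval -0.20 to 0.74, limma adjusted p = 0.567).

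Lrpprc and Slirp form a complex that keeps mitochondrial messenger RNAs stable and promotes their polyadenylation. They were the 2 genes with negative fold changes, although Lrpprc was at 0.0050 after rescaling over annotated genes only and both turned positive without oEV-EMT library 3. Lrpprc (ENSMUSG00000024120, chr17:84705247-84790789, minus strand) was at 39.1, 33.8 and 26.0 FPKM in oEV-EMT and 31.8, 36.2 and 37.2 FPKM in oEV-ctrl. The highest and the lowest library were both oEV-EMT, and the log2 fold change was -0.10 (interval -0.58 to 0.38, limma adjusted p = 0.849). After median-of-ratios scaling it was at 33.8, 31.0 and 26.1 against 35.2, 39.7 and 36.8, without overlap, with a log2 fold change of -0.29.

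Slirp (ENSMUSG00000021040, chr12:87443896-87452206, plus strand) was at 15.0, 10.4 and 7.19 FPKM in oEV-EMT and 7.53, 16.8 and 13.9 FPKM in oEV-ctrl. Both groups spanned most of the range, and the log2 fold change was -0.20 (interval -0.94 to 0.53, limma adjusted p = 0.798). Its value is uncertain for another reason. Of the bases in its exons, 93.9% overlap exons of Snw1, a splicing coactivator on the opposite strand that was at 63.8, 43.2 and 39.4 FPKM in oEV-EMT and 38.5, 32.6 and 44.1 FPKM in oEV-ctrl. Slirp was 15.4% to 34.0% of the sum of the pair, and without strand the reads of the pair cannot be told apart.

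Nrf1 encodes a nuclear transcription factor that binds the promoters of many genes for mitochondrial proteins (ENSMUSG00000058440, chr6:30047988-30153458, plus strand). It was at 25.7, 17.3 and 15.2 FPKM in oEV-EMT and 16.0, 10.4 and 14.2 FPKM in oEV-ctrl. Library 1 of oEV-EMT stood above the rest and library 3 overlapped oEV-ctrl. The log2 fold change was 0.48 (interval -0.10 to 1.05, limma adjusted p = 0.403), with means of 19.4 ± 5.54 and 13.5 ± 2.85 FPKM.

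The genes did not move as 1 block from library to library. The highest library was oEV-EMT 1 for 3 genes, oEV-EMT 2 for 3, oEV-EMT 3 for 3 and oEV-ctrl 2 for 1. The lowest was oEV-EMT 3 for 3 genes (Polg, Lrpprc and Slirp) and an oEV-ctrl library for the other 7. The SD between libraries on the log2 scale was larger in oEV-EMT for 7 of 10. The counts of extreme libraries and of larger SDs were not made over all genes. They are not read as traits of these genes, since 70.1% of all genes had positive fold changes. For 6 of 10 (Polg2, Polrmt, Tfam, Tfb2m, Tfb1m and Nrf1) the difference between groups was larger than the SD of each group, beside 37.2% of all genes tested. After median-of-ratios scaling this held for 2 of 10 (Polg2 and Lrpprc, the latter lower in oEV-EMT), beside 33.1% of all genes, so the count moved with the scaling.

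**Figure D3:**
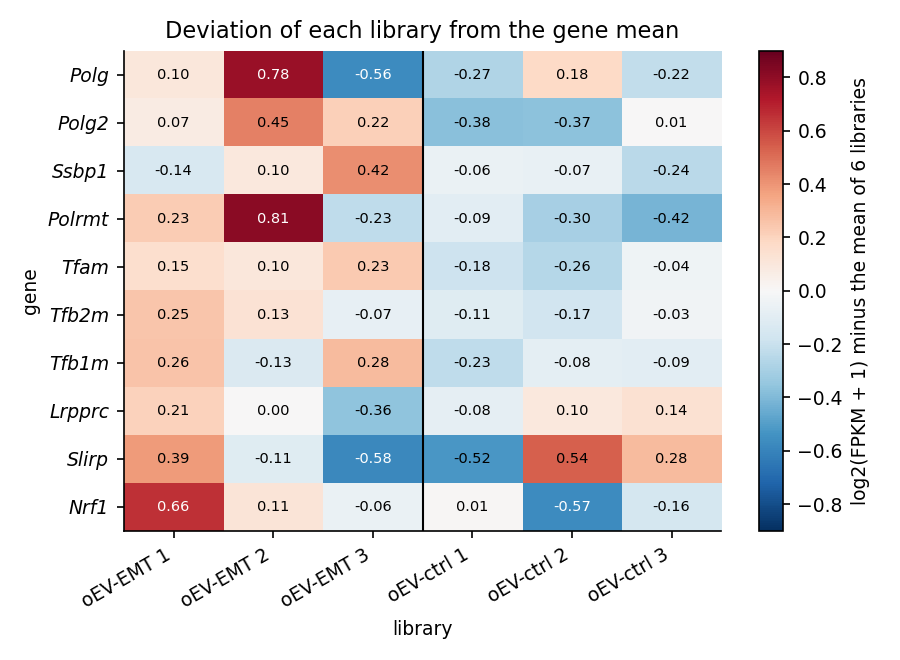
Deviation of log2(FPKM + 1) in each library from the mean of the 6 libraries, for the 10 genes (rows) and the libraries (columns), red above and blue below. Polg and Polrmt peak together in oEV-EMT 2 at 0.78 and 0.81, and Polg, Lrpprc and Slirp are at -0.56, -0.36 and -0.58 in oEV-EMT 3.

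Ratios of partner genes within a library do not depend on the scaling between libraries, apart from the added 1. The log2 ratio of Polg2 to Polg, accessory to catalytic subunit, was 0.10 ± 0.57 in oEV-EMT and -0.18 ± 0.39 in oEV-ctrl (SD, n = 3, exact two-sided permutation p = 0.6). That of Tfb1m to Tfb2m was 0.59 ± 0.31 and 0.52 ± 0.11 (exact permutation p = 0.8). Tfam over Polrmt, the packaging protein over the RNA polymerase, stood at 1.62 ± 0.59 and 1.84 ± 0.24 (exact permutation p = 0.7). Lrpprc over Slirp stood at 1.55 ± 0.21 and 1.45 ± 0.45 (exact permutation p = 0.8). This last ratio is uncertain, since 93.9% of the exon bases of Slirp overlap exons of Snw1. With 3 against 3 the smallest p is 0.1, so no ratio could have reached 0.05, and adjusted over the 5 single values tested each of these was 0.8. None of the 4 ratios differed by more than the larger SD of the groups.

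**Figure D4:**
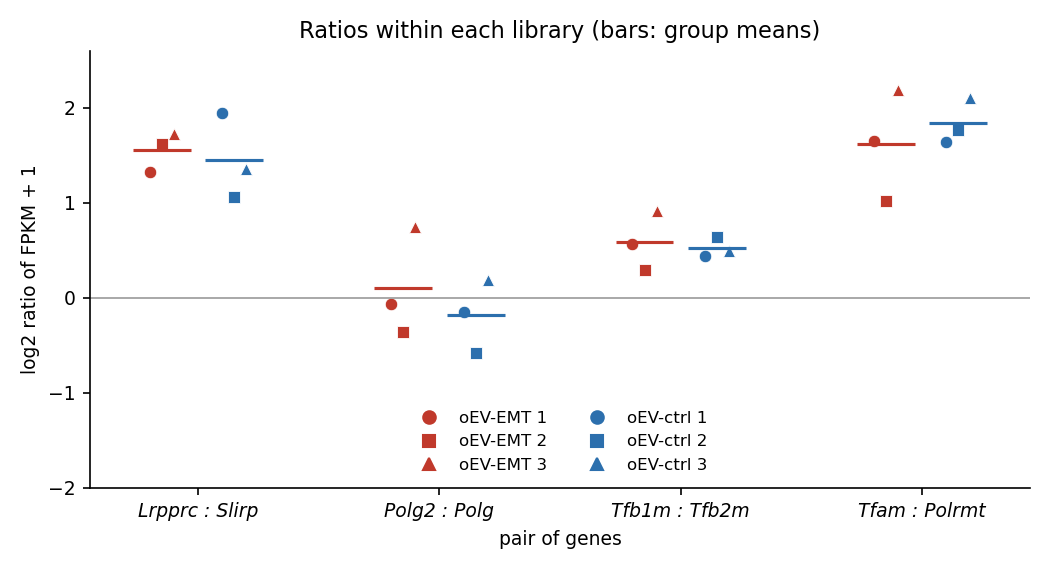
Log2 ratio of FPKM + 1 between partner genes in each library, with oEV-EMT in red, oEV-ctrl in blue and bars at group means. Red and blue points overlap for all 4 pairs, and Polg2 to Polg ranges from -0.58 to 0.74 over the 6 libraries.

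The 13 messenger RNAs transcribed from mitochondrial DNA held 3.38%, 3.63% and 4.28% of FPKM in oEV-EMT and 6.30%, 6.59% and 5.22% in oEV-ctrl. The groups did not overlap, and oEV-EMT was lower by 2.27 percentage points (exact two-sided permutation p = 0.1, the smallest possible with n = 3, and 0.5 adjusted over 5 values). Of the 13, 0 passed the adjusted threshold, with a smallest limma adjusted p of 0.0951. Without overlap 11 of the 13 were lower in oEV-EMT, beside 4.34% of all genes tested. At an unadjusted limma p of 0.05, 11 were lower, beside 2.55% of all genes. After median-of-ratios scaling 12 were lower without overlap, beside 10.3% of all genes. For 7 of the 13, over 10% of their 50-base stretches are also found in other annotated genes. The log2 ratio of their summed FPKM to each of the 10 nuclear genes, computed after the values were seen, was lower in oEV-EMT for every gene. The groups did not overlap for 7 of 10, at differences from -1.42 for Polrmt to -0.998 for Tfb2m (exact permutation p = 0.1 each). The same ratio did not overlap, and was lower in oEV-EMT, for 62.2% of 11862 nuclear genes above 0 in every library, so 7 of 10 was near the background. They overlapped for Polg at -1.01, Lrpprc at -0.67 and Slirp at -0.56. These ratios share 1 numerator, whose own log2 difference was -0.78, and are not independent of each other.

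Other genes of the pathway were counted in 4 lists, and none passed the adjusted threshold. Among 12 other replication and nucleoid genes, 9 had positive fold changes, the median was 0.26 and 1 was higher without overlap, beside 70.1% and 18.1% of all genes. That gene was Primpol, a primase that restarts stalled forks, at 5.06 ± 0.793 and 2.87 ± 0.654 FPKM (log2 fold change 0.65 ± 0.23 SE, limma adjusted p = 0.237). Top3a, a topoisomerase that separates daughter molecules, had 0.36, and Rnaseh1, which removes RNA primers, and Lonp1, a matrix protease, had -0.19 each. After median-of-ratios scaling 0 of the 12 were higher and 0 lower without overlap, beside 9.85% and 10.3% of all genes. Primpol then overlapped, with a log2 fold change of 0.50.

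Among 23 other genes of transcription and RNA maturation, 18 were positive and the median was 0.26. Pnpt1, Prorp and Mtpap were higher and Tefm lower without overlap, which is 3 and 1 of 23 beside 18.1% and 4.34% of all genes. Pnpt1, a subunit of the RNA degradosome, was at 22.2, 23.8 and 24.7 FPKM in oEV-EMT and 10.6, 16.9 and 15.7 FPKM in oEV-ctrl (log2 fold change 0.70 ± 0.23 SE, limma adjusted p = 0.214). Prorp, the nuclease of mitochondrial RNase P, was at 7.65 ± 0.442 and 4.50 ± 0.896 FPKM (0.66 ± 0.22 SE, adjusted p = 0.216 by limma). Tefm, the elongation factor of the RNA polymerase, was at 43.7 ± 7.90 and 53.0 ± 3.16 FPKM (-0.29 ± 0.21 SE, adjusted p = 0.535 by limma), and Fastkd3, an RNA binding protein, had -0.29. The mean FPKM of Tefm was above those of Lrpprc and Polrmt in both groups. After median-of-ratios scaling 3 of the 23 were higher and 3 lower without overlap, beside 9.85% and 10.3% of all genes.

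Of 10 genes of nucleotide supply 9 were tested, 8 were positive, the median was 0.34 and 2 were higher without overlap, again beside 70.1% and 18.1% of all genes. Mpv17, an inner membrane protein needed to keep mitochondrial deoxynucleotide pools, had the highest fold change of the 4 lists. It was at 76.6, 78.2 and 57.2 FPKM in oEV-EMT and 30.5, 39.0 and 41.0 FPKM in oEV-ctrl, so that the lowest oEV-EMT library was well above the highest oEV-ctrl library. Its log2 fold change was 0.92 ± 0.22 SE (limma adjusted p = 0.15). Dguok, the mitochondrial deoxyguanosine kinase, was at 44.9, 51.6 and 44.5 FPKM against a tight 30.6, 30.4 and 29.8 FPKM (0.61 ± 0.19 SE, adjusted p = 0.194 by limma). The counterpart kinase Tk2 had 0.074 and the pyrimidine nucleotide carrier Slc25a33 had -0.24. After median-of-ratios scaling 2 of the 9 were higher without overlap, beside 9.85% of all genes.

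Of 11 other nuclear regulators 10 were tested, since the coactivator Ppargc1a was listed at 0 FPKM in every library. Of these 7 were positive, with a median of 0.33. Myc was higher and Yy1 lower without overlap, which is 1 of 10 each beside 18.1% and 4.34% of all genes, both named after their values were seen. Myc was at 17.5 ± 5.0 and 10.0 ± 0.648 FPKM (limma adjusted p = 0.224). Yy1 was at 9.56, 6.77 and 7.21 FPKM against 11.5, 9.84 and 9.88 FPKM (limma adjusted p = 0.437). Gabpa, also named after its values were seen, had a log2 fold change of 0.57 with overlapping groups (limma adjusted p = 0.277). After median-of-ratios scaling 1 of the 10 (Myc) was higher and 2 (Yy1 and Ppargc1b) lower without overlap. Among all genes these shares were 9.85% and 10.3%.

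**Figure D5:**
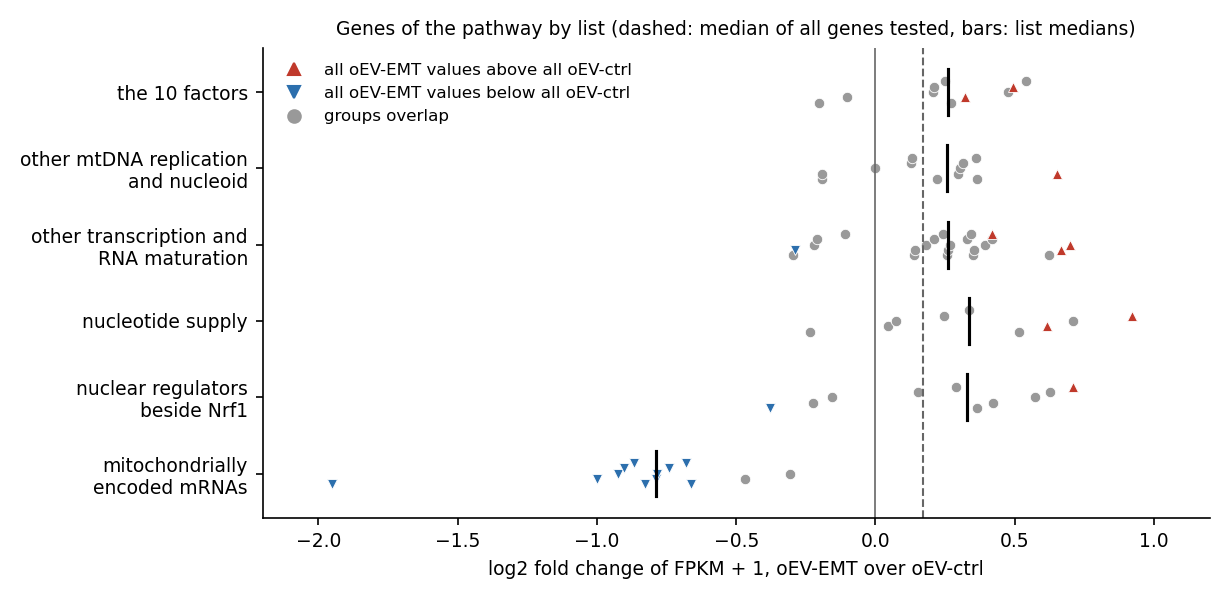
Log2 fold change of FPKM + 1 (oEV-EMT over oEV-ctrl) of each tested gene in the 10 factors and 5 lists, with triangles where the groups do not overlap, bars at list medians and a dashed line at the median of 11924 genes. The nuclear lists have medians from 0.26 to 0.34, and all 13 mitochondrially encoded messenger RNAs lie below 0 with a median of -0.79.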

How the data were processed

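Two-cell mouse embryos were cultured with vesicles, and RNA of 3 oEV-EMT and 3 oEV-ctrl pools of 10 blastocysts was sequenced. The authors deposited FPKM values per gene, and their processing notes name StringTie and the mouse build mm10. The aligner and the use of strand are not given in the sources used here, and the study's methods speak of TPM although column sums exceed 1000000 and differ. Of 55774 entries, 287 are unannotated loci, and 55141 identifiers matched GENCODE M21, which gave names, positions and overlaps.

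The 11924 genes that reached 1 FPKM in 3 or more libraries entered limma 3.58.1 in R 4.3.3 on log2(FPKM + 1), with trend and robust empirical Bayes and Benjamini-Hochberg adjustment. The threshold was an adjusted p of 0.05, with an absolute log2 fold change of 1 for the count over the table. For single values the exact permutation test (two-sided) was used. Whole reads could not be recovered, since only 14.2% to 21.8% of low values lay within 1% of whole steps. Alternatives covered scaling, filter, pseudocount, fit and left-out libraries. The rule for named genes was all 10 members, and of at most 3 lists the 2 genes with the lowest p on each side of the median of all genes. Prorp was matched by an older symbol. The members and lists were chosen with earlier results of these data known.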

Additional observations from a re-analysis of the deposited data

How the results depend on the processing

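None of the 10 genes passed an adjusted p of 0.05 under any alternative, with a smallest adjusted p of 0.0890 when libraries were weighted by quality. An unadjusted p of 0.05 was reached by Polg2 after rescaling to a sum of 1000000 or over annotated genes, without trend and robust fitting, and without oEV-EMT library 1 or oEV-ctrl library 3, by Polrmt without oEV-EMT library 3, and by both with quality weights. Genes past both thresholds in the whole table numbered 0 in the report and 4 with FPKM of at least 1 in all 6 libraries, 104 with library quality weights and 0 to 16 when 1 library was left out (16 without oEV-ctrl library 3, 4 without oEV-EMT library 1 and 1 without oEV-EMT library 3). Genes of the 10 without overlap numbered 2 in the report, 4 after rescaling to a sum of 1000000 (Polg2, Polrmt, Tfam and Nrf1, beside 22.7% of all genes higher without overlap), 1 after median-of-ratios or upper quartile scaling (Lrpprc, lower in oEV-EMT, beside 10.3% and 12.5% of all genes lower), 5 after rescaling over annotated genes only, an alternative chosen after seeing the data (beside 23.5%), and 2 to 5 with 1 library left out (5 without oEV-EMT library 3, beside 30.6%, and 4 without oEV-ctrl library 1, beside 22.3%). The median fold change of the 10 genes relative to all genes was 0.089, 0.24 without a filter, where genes near 0 lower the median of all genes to 0.023, and 0.051 to 0.14 with 1 library left out. Upper quartile scaling turned Polg to -0.0057, Ssbp1 to -0.0145 and Tfb2m to -0.041, and rescaling over annotated genes turned Lrpprc to 0.0050. With 1 library left out, Polg ran from -0.12 (without oEV-EMT library 2) to 0.55, Lrpprc from -0.23 to 0.054 and Slirp from -0.51 to 0.038 (both positive without oEV-EMT library 3, Slirp also at 0.018 without oEV-ctrl library 2), while the other 7 kept their sign. Of these, Ssbp1 moved to 0.10 without oEV-EMT library 3 and 0.38 without oEV-EMT library 1, Nrf1 to 0.27 without oEV-EMT library 1 and 0.31 without oEV-ctrl library 2, Tfb2m to 0.13 without oEV-EMT library 1 and Polrmt to 0.27 without oEV-EMT library 2. The difference in log2 ratio ran from -0.096 to 0.35 for Lrpprc to Slirp, -0.037 to 0.52 for Polg2 to Polg, -0.096 to 0.21 for Tfb1m to Tfb2m and -0.51 to 0.079 for Tfam to Polrmt. The cause of these changes was not tested. The depth of the libraries was estimated only relative to each other.

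With the replicate number as a block, 21 genes passed both thresholds and 0 of the 10 passed the adjusted threshold (smallest adjusted p 0.424). The numbers were not taken as pairs, since same-numbered libraries correlated at 0.119, -0.0442 and 0.0388, and not every library correlated best with its own number.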
